A study of Mus musculus with 12 samples.

Results

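The acute phase response in the mouse colon was described through 7 genes, the serum amyloid A genes Saa1, Saa2 and Saa3, haptoglobin (Hp), the protease inhibitor Serpina3n, pentraxin 3 (Ptx3) and the lipopolysaccharide binding protein Lbp. They were chosen by symbol, and the whole table holds 54532 genes per library. Colon RNA of C57BL/6 mice was sequenced in 4 groups of 3 libraries each. The mice were male, were 6 weeks old on delivery and adapted for 1 week. The Con group received no DSS and no ursolic acid (the labels call it untreated, and the methods give it the vehicle by gavage). The DSS group drank dextran sulfate sodium, a polymer that injures the colon epithelium, at 3% (w/v) for 5 days, with the vehicle by gavage. The UA+DSS group drank the same DSS and was gavaged with ursolic acid (UA), a plant triterpenoid, at 200 mg/kg daily for 7 days from 1 day before DSS. The DSS+UA group drank the same DSS and got UA at that dose for 4 days from 3 days after the start of DSS. No group received UA without DSS.

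Acute phase proteins are secreted in large amounts when interleukin 6, interleukin 1, tumour necrosis factor and related cytokines reach a cell through their receptors and the transcription factors STAT3, C/EBP and NF-kappaB. The liver is the classical source, and gut epithelium, fibroblasts and myeloid cells can also express several of these genes. Their products bind lipoproteins and retinol (serum amyloid A), free haemoglobin (haptoglobin), serine proteases (Serpina3n), complement and hyaluronan matrix (Ptx3) or bacterial lipopolysaccharide (Lbp).

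Each library held 15566216 to 19498383 counts, and values are given as CPM (a gene's share of all counts in parts per 1e+06, after scaling with TMM factors of 0.871 to 1.09). Each mean is given with its SD over 3 libraries, and a name such as DSS 2 means the second library of the DSS group. The labels do not say that the 3 libraries of a group are separate animals, while the methods name 3 colon tissues per group as the RNA source. The p-values measure the spread between these libraries only. In bulk tissue, fewer cells of a type and less RNA per cell cannot be told apart. 2 libraries stood apart before any comparison. The summed level of 6 neutrophil markers was 17650 CPM in DSS 2, against 600 and 795 CPM in DSS 1 and DSS 3 and at most 2.14 CPM in Con. The summed level of 6 pancreatic acinar markers was 13340 CPM in DSS 3 and 31.2 to 554 CPM in the other libraries. The summed level of 6 hepatocyte markers was 12.7 to 99.6 CPM in Con, 10.7 to 66.7 CPM in DSS, 14.6 to 30.4 CPM in UA+DSS and 10.9 to 38.5 CPM in DSS+UA. Of these markers Ahsg had at most 5 counts per library, Serpina1c at most 1 and Alb at most 43, and Ttr and Cyp2e1 carried most of the sum. A score of position along the colon, built from Hox genes, also separated UA+DSS from DSS and DSS+UA, while Con spread over both sides. It lay between -5.70 and -4.16 in UA+DSS, 4.11 and 5.06 in DSS+UA, 0.37 and 3.10 in DSS and -3.03 and 5.53 in Con (log2 scale, higher toward the rectum), so position and treatment cannot be told apart.

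Saa3, Hp, Serpina3n, Ptx3 and Lbp rose in the DSS group, while Saa1 did not pass the test and Saa2 had too few counts to be tested. edgeR's quasi-likelihood test called 5 of the 6 tested genes in DSS against Con, all raised, where 26.5% of all 17658 tested genes were called and 13.9% were raised. The libraries of these 5 genes did not overlap, which held for 21.2% of all genes in that direction. The median log2 fold change was 6.01 over the 6 genes and -0.03 over all tested genes. In Con, Saa3 had 3, 42 and 31 counts, Hp 6, 5 and 26 and Ptx3 3, 2 and 8. Saa3, Hp and Ptx3 thus had enough counts to be tested only through groups given DSS. The number raised and the median are therefore no evidence about the acute phase genes as a set. In UA+DSS against DSS Saa3, Hp, Serpina3n, Ptx3 and Lbp were lowered, where 18.7% of all genes were called and 10.5% were lowered (without overlap of libraries 21.7%), with medians of -3.21 and -0.02. That count was 3 without DSS 2, 3 without UA+DSS 1 and 1 without UA+DSS 2. In DSS+UA against DSS only Ptx3 and Lbp of the 6 were called, both lowered, where 7.54% of all genes were called and 5% were lowered (without overlap, as for 5 of the 6, 16.4%), with medians of -2.69 and 0.02. That count was 1 without DSS+UA 1 and 0 without DSS+UA 2 or DSS+UA 3. DESeq2 called 5, where it called 3126 of all 16458 genes it tested. These comparisons share the DSS libraries, so a low or high DSS library enters each of them.

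**Figure D1:**
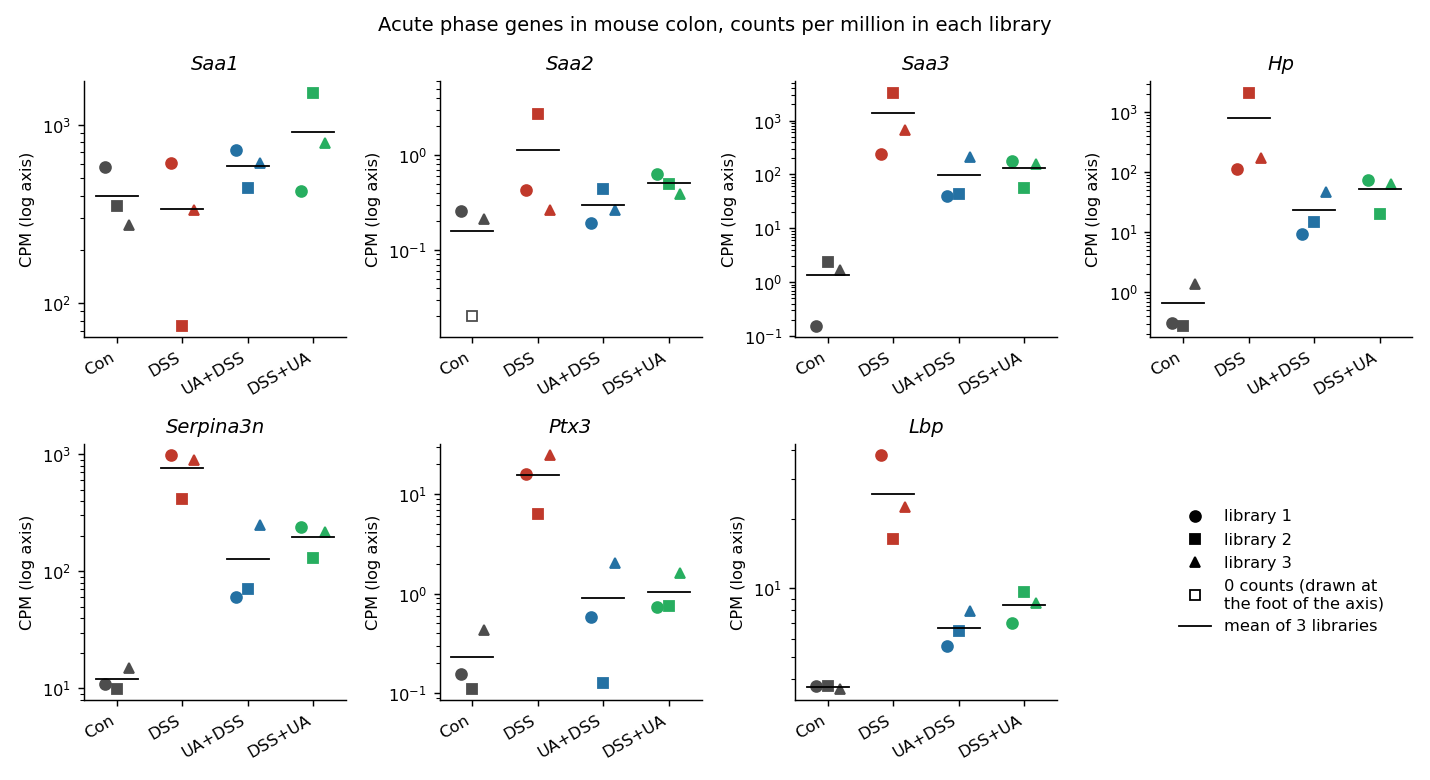
Level of each of the 7 genes in CPM (log axis) for the 12 libraries by group, with the group mean as a line and a library of 0 counts as an open point at the foot of the axis. The 3 DSS libraries lie above all Con libraries for Saa3, Hp, Serpina3n, Ptx3 and Lbp, while Saa1 overlaps between the groups and Saa2 stays under 3 CPM.

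Saa1, Saa2 and Saa3 lie near each other on chromosome 7 of GRCm38. Saa3 (ENSMUSG00000040026) is at chr7:46711998-46715700 and Saa1 (ENSMUSG00000074115) at chr7:46740497-46742980 on the minus strand, and Saa2 (ENSMUSG00000057465) is at chr7:46751790-46754313 on the plus strand. Saa1 and Saa2 encode nearly the same apolipoprotein of high density lipoprotein. Their coding sequences of 366 bases are 95.1% identical, with 18 differing bases, and Saa3 is 74.3% and 72.7% identical to them. The window of coding positions 70 to 189, counted from the start codon, holds 12 of these differences. It is shown because the differences decide which gene a read is counted for, and capitals mark the differing bases (GENCODE M21, GRCm38).
Saa1: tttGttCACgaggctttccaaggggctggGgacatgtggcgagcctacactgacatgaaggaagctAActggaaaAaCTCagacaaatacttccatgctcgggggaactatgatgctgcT
Saa2: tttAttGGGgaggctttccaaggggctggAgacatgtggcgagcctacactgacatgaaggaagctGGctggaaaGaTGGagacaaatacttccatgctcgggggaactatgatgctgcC
Of all stretches of 50 bases, 14.8% of the Saa1 transcript and 9.12% of the Saa2 transcript occur in another gene, against 1.78% for Saa3, and none of 100 bases does. Counts of Saa1 and Saa2 are therefore uncertain where a read falls in a shared stretch.

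Saa1 was already abundant without DSS. It had 576, 351 and 275 CPM in Con, 607, 74.8 and 335 CPM in DSS, and the UA groups held 720, 440 and 607 CPM (UA+DSS) and 427, 1509 and 792 CPM (DSS+UA). DSS 2 was the lowest of the 12 libraries and DSS+UA 2 the highest, and the groups overlapped. By edgeR's quasi-likelihood test with Benjamini-Hochberg adjustment, as throughout, the log2 fold change was -0.24 (SE 0.64, adjusted p = 0.802) in DSS against Con, 0.80 (SE 0.65, adjusted p = 0.418) for UA+DSS and 1.42 (SE 0.65, adjusted p = 0.172) for DSS+UA, both set against DSS. None of these passed the test in any of 21 alternatives. The sign for DSS against Con rested on single libraries, at 0.23 without DSS 2 and 0.11 without Con 1, and was 0.61 without both DSS 2 and DSS 3.

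Saa2 was close to absent. It had 0 to 5 counts in the Con libraries, 9, 54 and 5 counts in DSS, 3 to 7 in UA+DSS and 7 to 12 in DSS+UA, and it failed the low count filter. It passed the filter or was fitted without one in 12 of the alternatives, and among these it was called in DSS against Con only without DSS 3 (log2 fold change 3.24, adjusted p = 0.0302). Of the counts of Saa1 and Saa2 together, Saa2 made up 3.49% in DSS 2 (95% exact binomial interval 2.63 to 4.53%, covering counting error only). In the other libraries that share was at most 0.148% (interval 0.0764 to 0.258%, DSS+UA 1), and 0 of 6327 counts in Con 2 allow a share of up to 0.0474% when 3 counts are taken as the limit (0.0583% by the exact interval). DSS 2 was thus the library with the most Saa2 and the least Saa1. Saa4, the constitutive member of the family, had 1 to 8 counts per library and was not tested.

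Saa3, the family member expressed mainly outside the liver, was near 0 in Con. It had 0.155, 2.33 and 1.66 CPM in Con and 242, 3281 and 681 CPM in DSS. UA+DSS held 39.8, 43.0 and 209 CPM and DSS+UA 178, 55.9 and 155 CPM. Every DSS library was above every UA+DSS and DSS+UA library, and these were above every Con library. The mean rose from 1.38 ± 1.11 CPM in Con to 1401 ± 1643 CPM in DSS, a log2 fold change of 9.99 (SE 1.49, adjusted p = 0.00279). Without DSS 2 it was 8.39, without both DSS 2 and DSS 3 it was 7.46 and without Con 2 it was 10.59, and the call held in all 21 alternatives (adjusted p at most 0.0232).

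Saa3 fell in UA+DSS against DSS by 3.85 on the log2 scale (SE 1.12, adjusted p = 0.0384), from 1401 ± 1643 to 97.4 ± 97.0 CPM. The call was close to the threshold and held in 9 of 21 alternatives (adjusted p 0.00257 to 0.521). It was lost without DSS 2 (-2.25, adjusted p = 0.151), without UA+DSS 1 (adjusted p = 0.112), without UA+DSS 2 (adjusted p = 0.147), and without Con 2, Con 3, DSS+UA 1 or DSS+UA 3 (adjusted p 0.0526 to 0.0576). It fell by 5.08 without UA+DSS 3 (adjusted p = 0.0494). Between DSS+UA and DSS the log2 fold change was -3.43 (SE 1.10, adjusted p = 0.0737), from DSS to 130 ± 64.9 CPM, and did not pass the test. It was -1.82 without DSS 2 (adjusted p = 0.296).

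**Figure D2:**
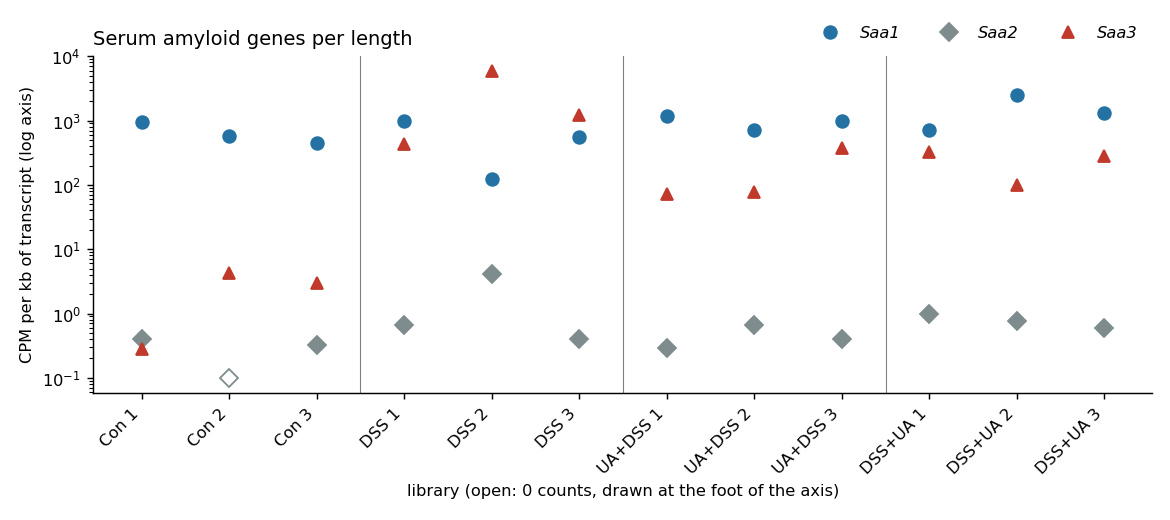
CPM per kb of the principal transcript (log axis) of Saa1, Saa2 and Saa3 in each of the 12 libraries. Saa1 is the highest of the family in 10 libraries, and Saa3 lies above it in DSS 2 and DSS 3.

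Per length of transcript, the order within the family changed between groups. CPM per kb averaged 658 for Saa1, 2.49 for Saa3 and 0.242 for Saa2 in Con, and 2524 for Saa3, 556 for Saa1 and 1.74 for Saa2 in DSS. The ratio of Saa3 to Saa1 per length was 0.000296 to 0.00728 in the Con libraries. It was 0.437, 48.1 and 2.23 in DSS 1, 2 and 3, so the higher place of Saa3 in the DSS mean came from DSS 2 and DSS 3. In UA+DSS the ratio was 0.0607 to 0.379 and in DSS+UA 0.0406 to 0.457, with Saa1 above Saa3 in all 6 libraries. Over all 7 genes, Saa1 led in Con, UA+DSS and DSS+UA. In the DSS mean, Saa3 led Hp, Saa1 and Serpina3n (601, 556 and 368 CPM per kb), and the libraries of each of these neighbours overlapped. The place of Hp came from DSS 2 (1587 CPM per kb). In DSS 1 and DSS 3 it had 86.4 and 128 CPM per kb, below Saa1 and Serpina3n. Within each DSS library Hp was below Saa3, at a ratio per length of 0.104 to 0.269.

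Upstream of these 3 genes, Saa1 and Saa2 are again alike and Saa3 is not. The 250 bases before the RefSeq start are 94.8% identical between Saa1 and Saa2 and 48.2% between Saa1 and Saa3. The 200 bases upstream of the gene are shown, 5′ to 3′ on the gene's strand (RefSeq, GRCm38.p6), at chr7:46742981-46743180 (minus) for Saa1, chr7:46751590-46751789 (plus) for Saa2 and chr7:46715701-46715900 (minus) for Saa3. Capitals mark the C/EBP motif TTNNGNAA on either strand.
Saa1: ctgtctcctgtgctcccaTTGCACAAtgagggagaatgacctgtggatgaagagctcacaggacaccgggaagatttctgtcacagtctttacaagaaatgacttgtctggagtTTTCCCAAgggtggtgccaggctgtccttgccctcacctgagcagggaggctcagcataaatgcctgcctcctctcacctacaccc
Saa2: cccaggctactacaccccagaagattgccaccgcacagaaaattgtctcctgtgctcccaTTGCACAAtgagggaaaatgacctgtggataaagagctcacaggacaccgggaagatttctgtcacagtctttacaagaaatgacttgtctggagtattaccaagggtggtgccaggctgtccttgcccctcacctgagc
Saa3: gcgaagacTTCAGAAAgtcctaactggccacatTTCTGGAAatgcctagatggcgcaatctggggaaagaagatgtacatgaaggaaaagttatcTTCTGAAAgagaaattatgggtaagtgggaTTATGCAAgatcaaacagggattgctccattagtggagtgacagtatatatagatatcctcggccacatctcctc
Windows of 250 bases held the C/EBP motif 2 times for Saa1, 1 time for Saa2, 4 times for Saa3, 2 times for Serpina3n and 1 time for Ptx3, and 36.8% of 32851 such windows hold it at least once. An NF-kappaB motif of 10 letters, in 4.11% of all windows, was matched in Serpina3n among these 5 genes, and the STAT motif TTCNNNGAA, in 7.02%, in none. No match of one motif overlapped a match of another, and these letters describe the windows only.

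Hp encodes haptoglobin, which binds free haemoglobin and hands it to the scavenger receptor Cd163. The gene (ENSMUSG00000031722) lies at chr8:109575128-109579172 on the minus strand. It had 0.310, 0.277 and 1.39 CPM in Con and 116, 2135 and 172 CPM in DSS. UA+DSS held 9.50, 14.9 and 47.6 CPM and DSS+UA 73.5, 20.3 and 65.4 CPM. As for Saa3, DSS 2 was far above the other libraries, and both UA groups lay between Con and DSS without overlap. The log2 fold change in DSS against Con was 10.24 (SE 1.59, adjusted p = 0.00306), and it was 7.76 without DSS 2, 7.46 without both DSS 2 and DSS 3 and 11.38 without Con 3. The call held in all 21 alternatives (adjusted p at most 0.0261).

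Hp fell in UA+DSS against DSS by 5.07 on the log2 scale (SE 1.24, adjusted p = 0.0216), from 808 ± 1150 to 24.0 ± 20.6 CPM, a call that held in 14 of 21 alternatives (adjusted p 0.00022 to 0.197). It fell by 2.59 without DSS 2 (adjusted p = 0.066) and by 6.05 without UA+DSS 3, and the call was also lost without UA+DSS 1 (adjusted p = 0.0692) or UA+DSS 2 (adjusted p = 0.102). For DSS+UA against DSS the log2 fold change was -3.93 (SE 1.17, adjusted p = 0.0622), which did not pass the test. It was -1.43 without DSS 2 (adjusted p = 0.315), while it passed without DSS 1 (-4.43, adjusted p = 0.0458) or DSS 3 (-4.39, adjusted p = 0.0489). Cd163 itself had 7.14, 1.33 and 6.84 CPM in Con and 125, 15.3 and 62.4 CPM in DSS, where it rose by 3.72 on the log2 scale (SE 0.74, adjusted p = 0.00675). Without DSS 1 the rise was 2.92 (adjusted p = 0.0169). Its order within DSS was the reverse of that of Hp, with DSS 2 lowest. Hpx, the haem scavenger hemopexin, stayed at or under 8 counts per library and was not tested.

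Serpina3n (ENSMUSG00000021091), at chr12:104406729-104414329 on the plus strand, encodes an inhibitor of serine proteases such as those of neutrophil and cytotoxic granules. It had 10.9, 9.98 and 14.9 CPM in Con and 978, 415 and 887 CPM in DSS. UA+DSS held 59.8, 70.5 and 250 CPM and DSS+UA 241, 130 and 218 CPM. The groups Con and DSS lay on either side of both UA groups, and DSS 2 was the lowest DSS library. The mean went from 11.9 ± 2.59 to 760 ± 302 CPM, a fitted rise of 63.7-fold (log2 fold change 5.99, SE 0.64, adjusted p = 0.00117), and the call held in all 21 alternatives (adjusted p at most 0.00788). The gene was 6.00-fold lower in UA+DSS than in DSS (log2 fold change -2.58, SE 0.55, adjusted p = 0.0147), a call kept in 17 of 21 alternatives (adjusted p 2.14e-05 to 0.178) and lost without UA+DSS 2 (adjusted p = 0.0723) or without both DSS 2 and DSS 3 (adjusted p = 0.0518). Without UA+DSS 3 the log2 fold change was -3.54. Between DSS+UA and DSS it was -1.95 (SE 0.54, adjusted p = 0.0508), just short of the threshold, and it passed without UA+DSS 3 (adjusted p = 0.0256), over all alternatives 0.00283 to 0.24.

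The neighbours of Serpina3n in the Serpina3 cluster are a family of related inhibitors. Of the 10 cluster genes, 6 could be tested. Serpina3h, Serpina3i and Serpina3m summed to 2, 6 and 1 counts in Con and to 44, 271 and 2072 in DSS. Serpina3c and Serpina3f were as low as 0.362 and 0.414 CPM in a Con library. All of these passed the low count filter only through groups given DSS. The number of cluster genes raised in DSS is therefore no evidence about the family. Of the 6, 4 were lowered in UA+DSS against DSS (10.5% of all genes) and 2 in DSS+UA against DSS (5%). Serpina3g rose from 5.65 to 69.9 CPM (log2 fold change 3.63, adjusted p = 0.00117) and Serpina3f from 0.848 to 16.4 CPM (4.27, adjusted p = 0.00484). Serpina3a and Serpina3j had 0 counts in all libraries. Stretches of 50 bases shared with other genes made up 6.90% of the Serpina3n transcript, 16.0% of Serpina3g and 10.7% of Serpina3f, so counts of the latter are uncertain.

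Ptx3 (ENSMUSG00000027832), at chr3:66219910-66225805 on the plus strand, encodes the long pentraxin, which is made at the site of inflammation by stromal and myeloid cells. It was the least abundant of the tested genes per length of transcript, with 3, 2 and 8 counts in Con (0.155, 0.111 and 0.428 CPM) and 15.8, 6.26 and 24.6 CPM in DSS. UA+DSS held 0.577, 0.125 and 2.02 CPM and DSS+UA 0.737, 0.742 and 1.61 CPM. UA+DSS overlapped with Con, while DSS+UA lay just above it. Ptx3 rose by 6.03 on the log2 scale in DSS against Con (SE 0.95, adjusted p = 0.00295) in all 21 alternatives (adjusted p at most 0.0165), and by 6.78 without Con 3. It fell by 4.06 in UA+DSS against DSS (SE 0.83, adjusted p = 0.0134), a call kept in 19 of 21 alternatives (adjusted p 6.14e-06 to 0.161) and lost without UA+DSS 2 (adjusted p = 0.0566). Leaving out UA+DSS 3, it fell by 5.45. It fell by 3.91 in DSS+UA against DSS (SE 0.82, adjusted p = 0.0261), kept in 16 of 21 alternatives (adjusted p 2.71e-05 to 0.152) and lost without DSS+UA 1, 2 or 3 (adjusted p 0.0589 to 0.0997) and without both DSS 2 and DSS 3 (adjusted p = 0.152).

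Ptx3 is known to be built into hyaluronan matrix together with Tnfaip6 and the inter-alpha-inhibitor heavy chains. Of 10 tested matrix partners, 6 rose in DSS against Con (13.9% of all genes), among them the heavy chain genes Itih3 and Itih4. The 2 that fell were the heavy chain genes Itih2 and Itih5. In UA+DSS against DSS 5 fell (10.5% of all genes) and in DSS+UA against DSS 4 fell (5%). The summed level of this list was lower in every DSS library (104 to 204 CPM) than in every Con library (211 to 381 CPM). Tnfaip6 went from 1.16 to 13.0 CPM in DSS (log2 fold change 3.47, adjusted p = 0.00275). Without Con 1 the log2 fold change of Tnfaip6 was 4.08, and without DSS 2 it was 2.88. The hyaluronan synthase Has1 went from 0.180 to 4.09 CPM (4.46, adjusted p = 0.00946) and Has2 from 2.24 to 7.35 CPM (1.71, adjusted p = 0.0197). Has1 summed to 10 counts in Con and passed the low count filter only through groups given DSS. The call of Has2 was lost without DSS 1, Con 2 or Con 3 (adjusted p 0.0549 to 0.0782). Like Ptx3, Has1 and Has2 were lowest in DSS 2 among the DSS libraries (1.05 and 3.46 CPM), whereas Tnfaip6 was highest there (21.6 CPM). The short pentraxin genes Crp and Apcs were at most 2 counts and 0 counts per library.

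Lbp (ENSMUSG00000016024), at chr2:158306493-158332852 on the plus strand, encodes the protein that carries lipopolysaccharide to Cd14, from which it passes to the Tlr4 and Ly96 (MD-2) receptor complex. It had the tightest controls of the 7 genes, with 3.72, 3.72 and 3.64 CPM in Con. DSS held 38.1, 16.3 and 22.7 CPM, UA+DSS 5.58, 6.50 and 7.92 CPM and DSS+UA 7.06, 9.65 and 8.59 CPM. All UA libraries lay above Con and below DSS. Lbp rose 6.95-fold in DSS against Con (log2 fold change 2.80, SE 0.31, adjusted p = 0.00117) in all 21 alternatives (adjusted p at most 0.0146). It was 3.85-fold lower in UA+DSS than in DSS (log2 fold change -1.94, SE 0.30, adjusted p = 0.00777, kept in 20 of 21 alternatives, adjusted p 1.08e-07 to 0.119) and 3.05-fold lower in DSS+UA (-1.61, SE 0.29, adjusted p = 0.0183, kept in 18 of 21, adjusted p 2.37e-05 to 0.0929). The last call was lost without DSS+UA 2 (adjusted p = 0.0521) or DSS+UA 3 (adjusted p = 0.0929).

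The partners of Lbp did not all change. Cd14 had 72.5, 35.0 and 33.2 CPM in Con and 148, 2519 and 136 CPM in DSS, and rose by 4.32 on the log2 scale (SE 1.05, adjusted p = 0.0148, 0.00661 to 0.0724 over the alternatives). The rise was 1.59 without DSS 2 (adjusted p = 0.0136), and the call was lost without Con 2 (adjusted p = 0.0604) or Con 3 (adjusted p = 0.0513). Tlr4 rose by 0.84 (SE 0.27, adjusted p = 0.0429), kept in 10 of 21 alternatives (adjusted p 0.00958 to 0.524) and lost without any 1 of Con 1, 2 or 3, DSS 2 or 3, UA+DSS 1, 2 or 3 or DSS+UA 3. Ly96 had a log2 fold change of -0.01 (SE 0.36, adjusted p = 0.988) that changed sign with the scaling. With UA+DSS against DSS, Cd14 fell by 4.42 (adjusted p = 0.02), a call held in 12 of 20 alternatives. The fall was 1.71 without DSS 2 (adjusted p = 0.0221), and the call was lost without UA+DSS 1, 2 or 3 (adjusted p 0.0573 to 0.0967). Pltp, the phospholipid transfer protein of the same family as Lbp, had a log2 fold change of 1.30 in DSS against Con (adjusted p = 0.077). The 4 tested genes of the pentraxin and Lbp families other than Ptx3 and Lbp, Pltp among them, had a median log2 fold change of 1.36 there and were not called. Over all genes 26.5% were called there.

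**Figure D3:**
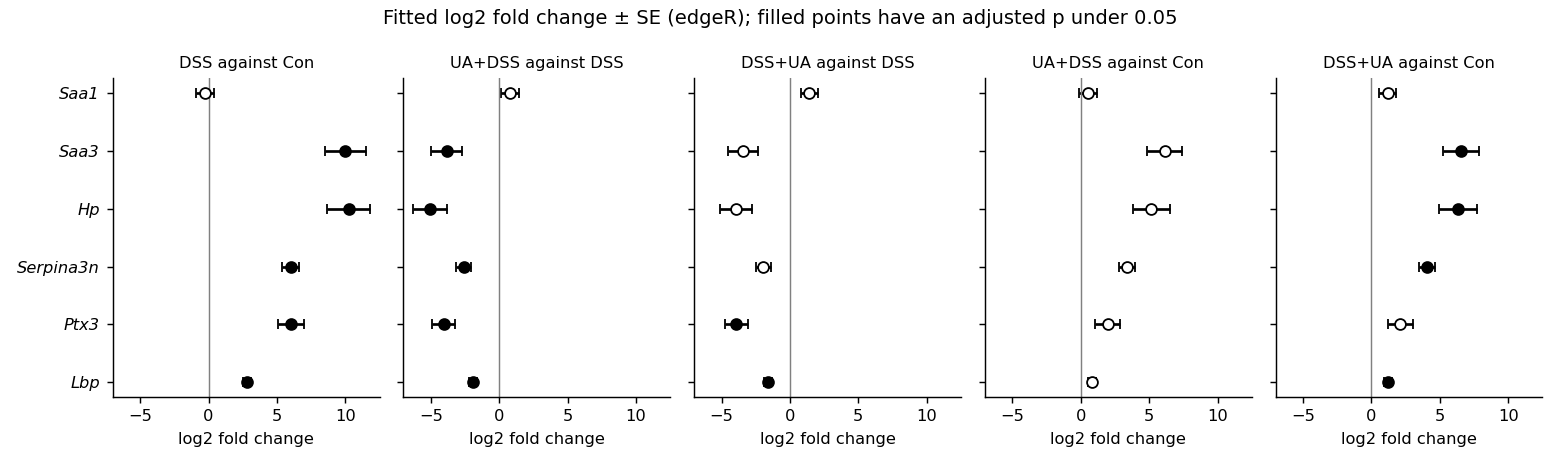
Fitted log2 fold change with its SE for the 6 tested genes in 5 comparisons, filled where the adjusted p was under 0.05. The 5 responding genes lie right of 0 in DSS against Con and left of 0 against DSS in both UA groups, with 2 filled points for DSS+UA against DSS and 4 for DSS+UA against Con.

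Both UA groups were also set against Con. For UA+DSS against Con, edgeR called 0 of the 6 genes, with 4 at an unadjusted p under 0.05, where 0.00566% of all genes were called (1 gene). DESeq2 called 3 of them (Saa3, Hp and Serpina3n), where it called 376 of all 17485 genes it tested, and limma-voom called 0. The libraries did not overlap for 4 of the 6, all higher in UA+DSS, against 9.62% of all genes. Their log2 fold changes were 6.14 for Saa3 (SE 1.28, adjusted p = 0.166), 5.17 for Hp (SE 1.34, adjusted p = 0.241), 3.41 for Serpina3n (SE 0.57, adjusted p = 0.166) and 0.85 for Lbp (SE 0.29, adjusted p = 0.329). Over the alternatives the adjusted p ran from 1.07e-05 to 1.00 for Saa3, 0.0023 to 1.00 for Hp, 1.02e-07 to 0.754 for Serpina3n and 0.175 to 1.00 for Lbp. Only DESeq2 gave a call.

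In DSS+UA against Con, 4 of the 6 genes were raised, where 18.1% of all genes were called and 9.13% were raised. The libraries of 5 of the 6 did not overlap, all higher in DSS+UA, against 19.8% of all genes. Saa3 was higher by 6.55 on the log2 scale (SE 1.31, adjusted p = 0.011) in all 21 alternatives, and by 7.16 without Con 2. Serpina3n was higher by 4.04 (SE 0.59, adjusted p = 0.00504) in all 21. Hp was higher by 6.32 (SE 1.39, adjusted p = 0.0153), by 7.47 without Con 3, and lost the call without Con 2 (adjusted p = 0.0556, over all alternatives 3.73e-06 to 0.0784). Lbp was higher by 1.19 (SE 0.30, adjusted p = 0.0214) and lost the call without Con 2, Con 3, DSS+UA 2 or DSS+UA 3 (adjusted p 0.0556 to 0.0638, over all alternatives 0.00256 to 0.116). Ptx3 had a log2 fold change of 2.12 (adjusted p = 0.118) and Saa1 of 1.18 (adjusted p = 0.213). The count of 4 was 2 without Con 2.

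The direct comparison of the UA groups found no difference past the test. In DSS+UA against UA+DSS, edgeR called 0 of the 6 genes, with 0 at an unadjusted p under 0.05, where 16.8% of all genes were called, and DESeq2 and limma-voom also called 0. The log2 fold changes ran from 0.16 for Ptx3 (SE 0.80) to 1.14 for Hp (SE 1.06), and the libraries overlapped for each of the 6 (0 without overlap, against 45.3% of all genes). Serpina3n alone passed without UA+DSS 3 (log2 fold change 1.61, adjusted p = 0.0372), the library with the highest Saa3, Hp, Serpina3n, Ptx3 and Lbp of its group.

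Among the DSS libraries, the tested genes took different orders. Saa3 and Hp were highest in DSS 2, at 13.6 and 18.4 times the lowest DSS library. Serpina3n, Ptx3 and Lbp were lowest of the DSS libraries in DSS 2, at 2.36, 3.92 and 2.33 times below the highest. Saa1 was lowest in DSS 2 and did not separate the groups. As a measure of likeness, the root mean square difference of centred log2 CPM over the 12 libraries was 0.874 between Hp and Saa3 and 1.08 between Ptx3 and Serpina3n, against 1.73 between Hp and Serpina3n, 2.50 between Ptx3 and Saa3 and 4.10 between Saa1 and Saa3.

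**Figure D4:**
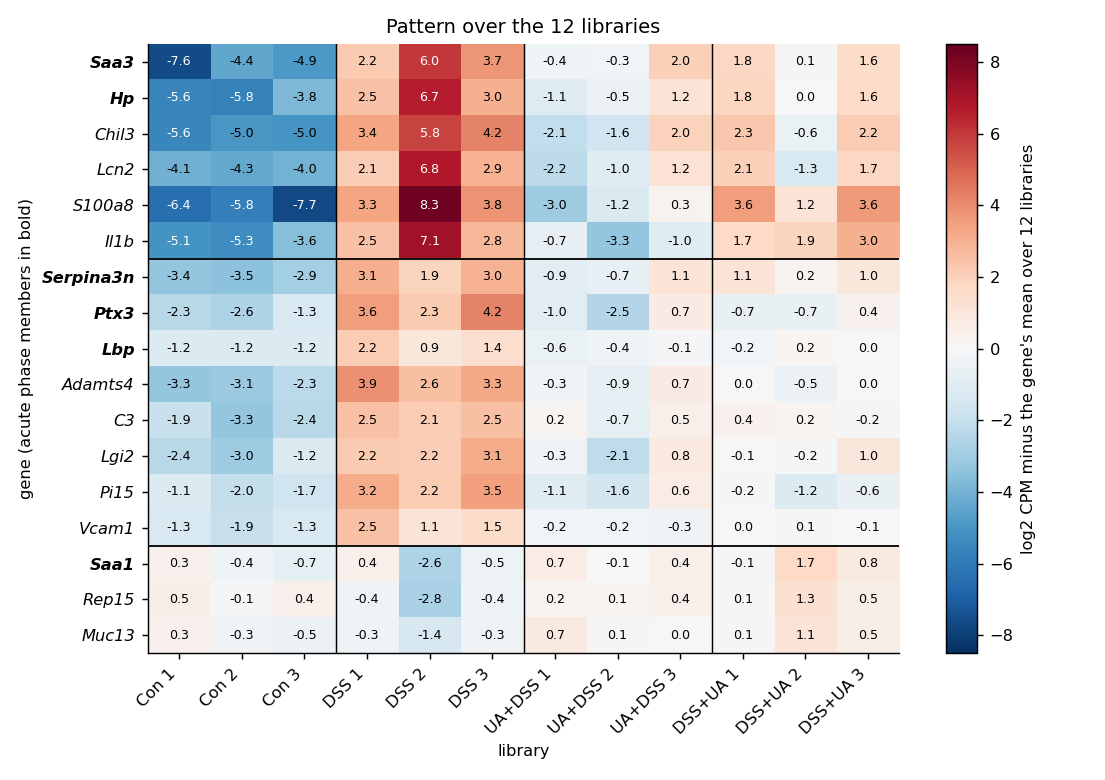
log2 CPM minus the gene's mean over the 12 libraries for 6 of the acute phase genes (bold) and for genes of like pattern, with S100a8 and Il1b added for comparison. The upper block peaks in DSS 2, the middle block is high in all DSS libraries with DSS 2 at or below another DSS library, and the lower block is lowest in DSS 2.

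By this measure, and leaving out the 7 genes themselves, the 2 tested genes nearest to Saa3 were Chil3 (1.00) and Lcn2 (1.32), and those nearest to Hp were Lcn2 (0.799) and Chil3 (0.850). Lcn2 encodes lipocalin 2, a siderophore binding acute phase protein, and Chil3 a chitinase-like protein of myeloid cells. Nearest to Serpina3n were the aggrecanase gene Adamts4 (0.634) and complement C3 (0.739), and nearest to Ptx3 were Lgi2 (0.624) and Pi15 (0.645). Nearest to Lbp were the adhesion molecule gene Vcam1 (0.304) and Serpina3c (0.346). Nearest to Saa1 were Rep15 (0.460) and the epithelial mucin gene Muc13 (0.487). The measure favours genes with a small range, so the values compare neighbours of one gene only.

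Levels of cell type markers differed between libraries, not always in the order of these genes, and their part in these patterns was not tested. Within DSS, macrophage markers (1088, 500 and 550 CPM in DSS 1, 2 and 3) took the same order as Serpina3n and Lbp. Fibroblast markers were lowest in DSS 1, where Serpina3n and Lbp were highest. Endothelial markers were highest in DSS 2, where Serpina3n, Ptx3 and Lbp were lowest of the DSS libraries. Summed neutrophil markers were 17650 CPM in DSS 2, 12.3 to 66.8 CPM in UA+DSS and 125 to 682 CPM in DSS+UA. All 6 were raised in DSS against Con and lowered in UA+DSS against DSS, where 10.5% of all genes were lowered. In the Con libraries the 6 together summed to 0.998 to 2.14 CPM. Most of them, with S100a8 and S100a9 (8 and 2 counts in Con), thus passed the low count filter only through groups given DSS. The number raised or lowered is therefore no evidence about neutrophil markers as a set. Summed fibroblast markers were 2664, 3799 and 5940 CPM in DSS and 512 to 1927 CPM in the other libraries, and 4 of 5 were raised in DSS against Con. Summed macrophage markers were 500 to 1088 CPM in DSS and 75.2 to 602 CPM elsewhere (5 of 6 raised in DSS against Con), and summed endothelial markers 187 to 301 CPM in DSS and 71.0 to 158 CPM elsewhere (2 of 4 raised). Summed epithelial markers were 6546 CPM in DSS 2, the library lowest in Saa1, and 9098 to 22010 CPM in the others, and highest in DSS+UA 2, the library highest in Saa1. Of 4 tested hepatocyte markers 1 (Ttr) was lowered in DSS against Con, and of 5 tested pancreatic acinar markers 4 were raised, with DSS 3 far above the other libraries. Over all genes 26.5% were called in DSS against Con and 13.9% were raised.

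Most tested cytokines that induce these genes rose in the DSS group. Of 9 tested, 8 were raised in DSS against Con (median log2 fold change 7.53), where 13.9% of all genes were raised. In UA+DSS against DSS 7 were lowered (10.5% of all genes) and in DSS+UA against DSS 2 (5%). Il6, Il22, Osm and Il1b summed to 2, 0, 18 and 48 counts in Con and passed the low count filter only through groups given DSS. Ifng had too few counts to be tested. The number raised is thus no evidence about the cytokines as a set. Il1b had 0.517, 0.444 and 1.60 CPM in Con, 120, 3011 and 150 CPM in DSS, and with UA 13.0, 2.12 and 10.5 CPM (UA+DSS) or 68.0, 77.8 and 170 CPM (DSS+UA). It thus peaked in DSS 2, as Saa3 and Hp did (log2 fold change in DSS against Con 10.31, SE 1.66, adjusted p = 0.00332). It was 7.29 without DSS 2 and 11.12 without Con 3, called in both. Osm and Tnf were also highest in DSS 2, with 152 and 249 CPM in DSS 2 against 13.7 to 16.6 and 5.07 to 6.54 CPM in the other DSS libraries. Osm rose by 7.53 (5.53 without DSS 2), and Tnf rose by 5.71 (adjusted p = 0.0208) but had 1.81 without DSS 2 (adjusted p = 0.0956) and lost the call without any 1 Con library.

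Il6 summed to 2 counts in Con and 860 in DSS, which makes a ratio of 427 (95% exact interval 118 to 3528, counting error only). The ratio was 262 without DSS 3 and 282 without Con 1, and its highest library was DSS 3 (26.6 CPM, against 7.12 and 10.4). Between UA+DSS and DSS the log2 fold change of Il6 was -4.94 (SE 1.14, adjusted p = 0.0183), or -4.20 without DSS 3 and -6.78 without UA+DSS 3, and the call was lost without UA+DSS 1 or 2 (adjusted p 0.0594 and 0.0805). Between DSS+UA and DSS it was -2.37 (SE 0.98, adjusted p = 0.137). Il22, which acts on epithelium, had 0 counts in Con and 224 in DSS, at least 74.1-fold higher where the Con libraries are together put at 3 counts. It was at least 11.5-fold higher without DSS 1 and at least 48.4-fold without Con 2, 49.0-fold without Con 1 and 50.8-fold without Con 3, and most of it was in DSS 1 (9.67 CPM, against 1.05 and 0.106). By edgeR's test Il22 was called raised in DSS against Con (adjusted p = 0.0334). That call was lost without Con 1, 2 or 3, DSS 1, DSS+UA 1 or DSS+UA 3 (adjusted p 0.05 to 0.084).

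Of 11 receptor genes for these cytokines, 7 rose in DSS against Con (13.9% of all genes). In UA+DSS against DSS 6 fell (10.5% of all genes) and in DSS+UA against DSS 5 fell (5%). The oncostatin M receptor Osmr went from 9.04 to 12.2 CPM over the Con libraries to 49.1 to 57.4 CPM in DSS (log2 fold change 2.31, SE 0.17, adjusted p = 0.000236). Il1r1 rose by 1.55 (adjusted p = 0.000833) and fell by 1.50 (adjusted p = 0.00378) and 2.26 (adjusted p = 0.000268) in UA+DSS and DSS+UA against DSS. Its log2 fold change in DSS+UA against Con was -0.71 (adjusted p = 0.0132; 0.0518 without DSS+UA 3), while Osmr was higher than in Con by 0.78 (adjusted p = 0.0122). The signal transducer Il6st rose by 1.72 (adjusted p = 0.00322), and the epithelial Il22ra1 had a log2 fold change of -0.74 (adjusted p = 0.331).

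Of the 13 transcription factors and feedback genes reported here, 8 rose in DSS against Con (13.9% of all genes). A fitted 17.9-fold rise was found for Cebpb, with 110, 509 and 91.4 CPM in the DSS libraries against 11.6 to 16.4 CPM in Con (log2 fold change 4.16, SE 0.60, adjusted p = 0.0025). Socs3, a feedback inhibitor and target of STAT3, rose 30.9-fold (4.95, SE 0.70, adjusted p = 0.00242), Cebpd by 2.28 (adjusted p = 0.00798; 2.96 without Con 1) and Stat3 by 1.50 (adjusted p = 0.000868). Without DSS 2 the rise was 2.92 for Cebpb and 3.73 for Socs3 on the log2 scale, and both calls held. Nfkb1 rose by 0.80 (adjusted p = 0.011), and Nfkbiz had a log2 fold change of 2.13 (adjusted p = 0.095) that was 0.11 without DSS 2 and -0.05 without both DSS 2 and DSS 3. Between UA+DSS and DSS 6 of the 13 fell (10.5% of all genes), among them Cebpb (-3.46, adjusted p = 0.00997) and Socs3 (-3.08, adjusted p = 0.0147). The 2 that rose were Cebpa and Hnf4a, factors of differentiated epithelium and liver. Without DSS 2 these log2 fold changes were -2.23 for Cebpb (adjusted p = 0.00231) and -1.87 for Socs3 (adjusted p = 0.0191). Both calls were lost without UA+DSS 2 (adjusted p 0.0556 and 0.0719), and that of Socs3 also without UA+DSS 3 (adjusted p = 0.0505). Of the 13, Cebpb alone was called in DSS+UA against DSS (7.54% of all genes), with a log2 fold change of -2.38 (adjusted p = 0.0352). It was -1.13 without DSS 2 (adjusted p = 0.0192), and the call was lost without any 1 of the 6 UA libraries (adjusted p 0.0535 to 0.126).

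**Figure D5:**
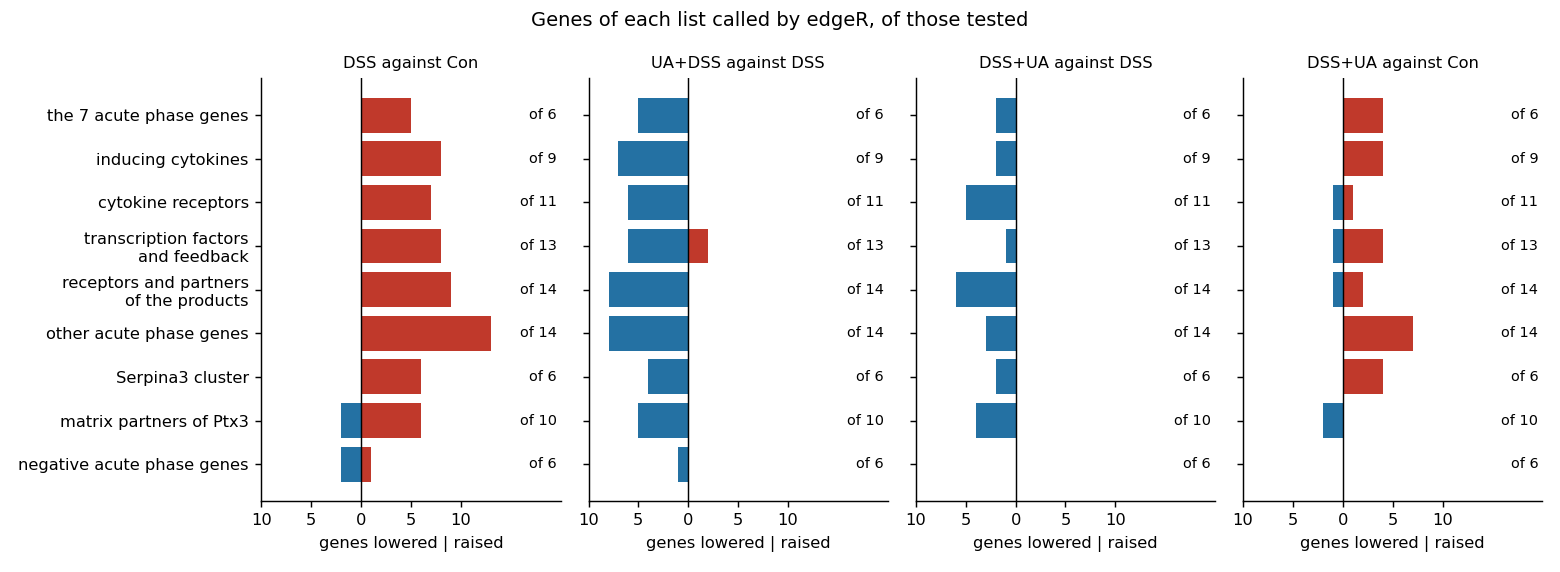
Number of genes called raised (right, red) or lowered (left, blue) by edgeR in each list, with the number tested at the right edge, for 4 comparisons. In DSS against Con most calls are raised (13 of 14 for other acute phase genes), with 2 matrix partners and 2 negative acute phase genes lowered. In UA+DSS against DSS most are lowered, with 2 transcription factors raised, and the bars are shorter in DSS+UA against DSS.

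Of 28 other acute phase genes, 14 had enough counts to be tested, and 13 of these rose in DSS against Con (13.9% of all genes). Those untested included the liver genes Hpx, Crp, Apcs and the fibrinogen chains Fga, Fgb and Fgg, each with at most 14 counts per library. Orm1 had 130 counts in DSS 2 (6.51 CPM) and at most 14 in each other library, and Mbl2 had at most 95 counts per library, with 3 or fewer in 10 libraries. A gene could also pass the low count filter through the DSS libraries alone, so the count covers the genes measurable here. Lcn2 had 0.832 to 1.07 CPM in Con and 80.4, 2147 and 143 CPM in DSS, and with UA 3.98, 9.31 and 44.5 CPM (UA+DSS) or 77.9, 7.73 and 62.2 CPM (DSS+UA). Its order of libraries within each of the 4 groups was that of Hp, and its rise in DSS against Con was 9.67 on the log2 scale (adjusted p = 0.00544), or 6.85 without DSS 2. C3 had 15.0 to 38.5 CPM in Con and 641 to 842 CPM in DSS (log2 fold change 4.83, SE 0.42, adjusted p = 0.00043), and was lower by 2.35 in UA+DSS (adjusted p = 0.00836) and by 2.23 in DSS+UA (adjusted p = 0.0134) than in DSS. The last call was lost without DSS+UA 2 (adjusted p = 0.0504) or DSS+UA 3 (adjusted p = 0.0929). Ceruloplasmin (Cp) rose 12.1-fold (adjusted p = 0.00133) and the metalloreductase gene Steap4 36.9-fold (adjusted p = 0.00266), on the log2 scale 5.20, or 3.86 without DSS 2.

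Lrg1, a secreted leucine-rich glycoprotein, was called between the UA groups. It had 0.998 to 5.90 CPM in Con, 86.1, 356 and 75.7 CPM in DSS, and with UA 21.2, 10.4 and 14.6 CPM (UA+DSS) or 153, 132 and 126 CPM (DSS+UA). DSS+UA overlapped with DSS and not with UA+DSS, and Lrg1 was higher in DSS+UA than in UA+DSS by 3.15 on the log2 scale (SE 0.69, adjusted p = 0.0159, kept in 18 of 21 alternatives, 1.94e-05 to 0.677). That call was lost without UA+DSS 2 (adjusted p = 0.0758) or UA+DSS 3 (adjusted p = 0.0536). Of the 14 genes tested, Lrg1 alone was called in that comparison, where 16.8% of all genes were called. Il1rn, the interleukin 1 receptor antagonist, rose by 3.17 in DSS against Con (adjusted p = 0.013), by 1.47 without DSS 2 (adjusted p = 0.0108), and lost the call without Con 2 (adjusted p = 0.0531). It was 986 CPM in DSS 2 and 120 to 135 CPM in the other DSS libraries.

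Among receptors and partners of the products, 9 of 14 rose in DSS against Con (13.9% of all genes). In UA+DSS against DSS 8 fell (10.5% of all genes) and in DSS+UA against DSS 6 fell (5%). Fpr2, a formyl peptide receptor that binds serum amyloid A, had 0.107 to 0.333 CPM in Con and 10.9, 156 and 7.82 CPM in DSS (log2 fold change 7.93, SE 1.32, adjusted p = 0.00368), and its rise was 5.29 without DSS 2. Fpr2 summed to 13 counts in Con and passed the low count filter only through groups given DSS. Tlr2 rose by 2.63 (adjusted p = 0.0427), a call held in 6 of 20 alternatives (adjusted p 0.0213 to 0.447), with 0.67 without DSS 2 (adjusted p = 0.305). It was also lost without Con 1, 2 or 3, UA+DSS 1, 2 or 3, DSS+UA 1 or DSS+UA 3. Of 6 tested negative acute phase genes, which fall in the liver during inflammation, 2 (Ttr and Rbp4) fell and 1 (Serpinf1) rose in DSS against Con, and 1 call of the 3 was left without Con 1, 2 or 3, DSS 1 or DSS 3. Over all genes 26.5% were called in DSS against Con. Apoa1 was listed at 785 CPM in DSS 2 and 166 CPM in DSS+UA 3 and at 3.62 CPM or less in the other libraries, and Trf had a log2 fold change of 0.39 (adjusted p = 0.683).

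The counts of these lists in the comparisons with DSS depended on single libraries. Some genes are counted in more than 1 list. Tnfaip6 is among the receptors and partners of the products and the matrix partners. Itih3 and Itih4 are among the other acute phase genes and the matrix partners. Without UA+DSS 2, the number called in UA+DSS against DSS went from 7 to 2 for cytokines, from 6 to 2 for their receptors, from 8 to 0 for transcription factors and feedback genes, from 8 to 0 for receptors and partners of the products, from 8 to 1 for other acute phase genes, from 4 to 0 for the Serpina3 cluster and from 5 to 0 for matrix partners of Ptx3. Without DSS+UA 3, the number called in DSS+UA against DSS went from 2 to 0, 5 to 2, 1 to 0, 6 to 1, 3 to 0, 2 to 0 and 4 to 0 for the same lists in that order. Over all tested genes the number went from 3300 to 183 and from 1331 to 25.

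With the Hox score as a covariate, edgeR called 5 of the 6 genes in DSS against Con, 0 in UA+DSS against DSS (adjusted p 0.119 to 0.310) and 1 in DSS+UA against DSS (Lbp, adjusted p = 0.0396). The log2 fold changes in UA+DSS against DSS were then -5.86 for Saa3, -5.66 for Hp, -2.38 for Serpina3n, -4.00 for Ptx3, -1.67 for Lbp and 1.76 for Saa1, each of the same sign as without it. With that covariate 3 genes of all tested were called in UA+DSS against DSS.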

How the data were processed

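RNA-seq of 12 mouse colon libraries (4 groups of 3; 8 mice per group in the study) was analysed. The deposited values were raw counts per gene made by the authors, whose processing notes name FastQC, HISAT2, Cuffdiff and GRCm38; the sources used here do not give versions, the counting tool or strand. RNA was extracted with Trizol per the labels and with an RNeasy kit per the methods. Of 54532 genes, 123 had no name (0.0297% of counts). They stayed in the fits and were left out only of the search for genes of like pattern. edgeR 4.0.16 (filterByExpr, TMM, robust quasi-likelihood fit of all 12 libraries, group only) tested 17658 genes with Benjamini-Hochberg adjustment, called under 0.05. DESeq2 1.42.0, limma-voom 3.58.1, RLE and library size scaling, no filter, a replicate block, a position covariate, fits of 2 groups, and leaving out each of 12 libraries or both DSS 2 and DSS 3 (added after seeing the data) were alternatives. Scripts were tested on simulated data. Lengths came from GENCODE M21 and promoters from RefSeq (5 of 7 genes matched; Hp and Lbp did not). The genes named were the 7, marked genes of the lists, and the 2 nearest in pattern to each. The members and lists were chosen with earlier results of these data known. One gene of the list of transcription factors is not reported here and was left out of that list after its results had been seen, for a reason unrelated to its values. Totals of 15566216 to 19498383 counts limit genes of few counts, and intervals cover counting error only.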

Additional observations from a re-analysis of the deposited data

How the results depend on the processing

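The 5 calls in DSS against Con were kept in every alternative, with 5 to 6 of the genes called when 1 library was left out (the sixth was Saa2, without DSS 3). In UA+DSS against DSS the 5 calls became 3 with no low count filter, 0 with the position covariate, 2 in the fit of both groups alone, 2 without both DSS 2 and DSS 3, and 1 to 5 without 1 library. In DSS+UA against DSS the 2 calls became 5 with DESeq2, 1 with the position covariate, 1 in the fit of both groups alone, 1 without both DSS 2 and DSS 3, and 0 to 3 without 1 library. In UA+DSS against Con the count of 0 became 3 with DESeq2 (376 calls over all genes) and 0 to 0 without 1 library. In DSS+UA against Con the 4 calls became 2 with limma-voom, 2 with the position covariate and 2 to 4 without 1 library. For DSS+UA against UA+DSS the count of 0 became 0 to 1 without 1 library. The cause of these changes was not tested.

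The sign turned for values near 0. Saa1 in DSS against Con ran from -0.97 to 0.23 without 1 library and was 0.61 without both DSS 2 and DSS 3, where Saa1 in UA+DSS against DSS was -0.053. In DSS+UA against UA+DSS, Saa1 was -0.70 and Lbp -0.041 with the position covariate, and Ptx3 ran from -0.35 to 1.56 without 1 library. In DSS against Con, Nfkbiz was -0.047 without both DSS 2 and DSS 3, Trf ran from -0.16 to 1.64 without 1 library, and Ly96 was 0.031 with limma-voom, 0.072 with library size scaling, 0.005 with no filter, 0.19 without both DSS 2 and DSS 3, and -0.20 to 0.39 without 1 library. Of the alternative values of the 6 genes, 689 kept sign and call, 14 gained a call, 43 lost it and 9 turned sign.

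The replicate numbers were not used to pair the libraries in the main fit. Of 18 same-numbered pairs, 5 had deviations correlated over 0.1 (range -0.216 to 0.187), and differently numbered pairs ran from -0.289 to 0.240. This check cannot show whether libraries of the same number share a batch. With the replicate block 5, 4 and 3 of the genes were called in DSS against Con, UA+DSS against DSS and DSS+UA against DSS, then 0 in UA+DSS against Con, 5 in DSS+UA against Con and 0 in DSS+UA against UA+DSS. Over all genes the block gave 552 calls in DSS+UA against DSS, in place of 1331.

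Over all genes, DSS against Con had 4688 calls, 2131 in the fit of both groups alone and 1522 without both DSS 2 and DSS 3. UA+DSS against DSS had 3300 calls, 3 with the position covariate, 2072 in the fit of both groups alone and 495 without both DSS 2 and DSS 3. DSS+UA against DSS had 3126 calls with DESeq2, 882 with no filter, 199 with the position covariate, 430 in the fit of both groups alone and 29 without both DSS 2 and DSS 3. Library size scaling moved its split from 448 raised and 883 lowered to 140 and 1003, with a median of all genes of -0.11, and that of DSS+UA against Con from 1613 and 1580 to 1035 and 1557.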
